A study of Mus musculus with 3 samples.

Results

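The genes described here write, erase or enforce histone methylation: 37 mouse genes that encode polycomb subunits, histone lysine methyltransferases and histone lysine demethylases. They were taken by symbol from a fixed list, matched to GENCODE M21 gene identifiers, and all 37 were found among the 55536 mouse genes of the deposited gene tables. Their values come from RNA-seq of polyadenylated transcripts in primary Treg (regulatory T cells, a CD4 lineage that depends on Foxp3 and holds back immunity), labelled as activated, male and 3 weeks old. The labels give no genotype, no strain, no treatment and no way of activation. The 3 libraries are labelled technical replicates 1, 2 and 3 of 1 biological replicate and form 1 group, so the study allows no contrast between conditions. Every SD below is the spread over these 3 libraries, and every p-value measures only differences between libraries, which may be technical. Levels are given as TPM, a measure of abundance that corrects for length and depth, and differences between libraries are in CPM, read counts scaled for depth by the TMM method.

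Histone methylation marks chromatin as active or silent according to the residue that carries it. Polycomb repressive complex 2 (PRC2) methylates lysine 27 of histone H3 (H3K27), and polycomb repressive complex 1 (PRC1) reads that mark and ubiquitinates histone H2A. Methylation of H3K4 by the MLL and SETD1 families and of H3K36 by SETD2 and the NSD proteins goes with transcription, whereas H3K9 methylation goes with heterochromatin, and the LSD1 and Jumonji demethylases remove these marks. In Treg, Ezh2 is known to be induced on activation and to help maintain the Foxp3-dependent programme.

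The libraries held 30362256, 28419259 and 31959927 reads assigned to mouse genes. All 7 markers of the labelled cell type were expressed, from 130.2 TPM for Foxp3 to 973 TPM for Cd3e (mean of 3 libraries). Of the lists for other cells, that of stromal and epithelial genes was nearly level, with sums of 93.1, 87.1 and 89.5 TPM, although Epcam in it had 5.16, 13.96 and 6.83 TPM. The others differed more between libraries. The 15 proliferation genes summed to 907.5, 441.4 and 613 TPM in libraries 1, 2 and 3, the 5 red cell genes to 9649, 819.6 and 568 TPM, the 6 myeloid genes to 104.1, 40.1 and 62.9 TPM, and the 5 B cell genes to 42.9, 40.2 and 67.7 TPM. Among the defining markers, S100a8 had no reads in library 2 and S100a9 none in library 3, and no listed marker was at 0 in all libraries. The part of these other cells in the differences described below was not tested. In bulk RNA, fewer cells of a type and less RNA per cell cannot be told apart.

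Each of the 37 genes was detected, meaning 1 TPM or more in every library, against 48.1% of the 22028 protein-coding genes. Their means ran from 2.53 TPM for Suv39h2 to 192.8 TPM for Kmt2e, with a median of 42.1 TPM, beside a median of 30.1 TPM over all detected protein-coding genes. The highest after Kmt2e were Cbx7 at 109.8 TPM, Eed at 97.3 TPM and Kdm5a at 91.4 TPM. At the low end, Kdm6b, Setd1a, Setd1b and Setd7 had 3.59, 4.47, 4.75 and 6.34 TPM. Neighbours in the order of levels were mostly not separable: 33 of the 36 steps were within 2 SD of the log2 ratio between libraries. The 3 steps beyond it were Kmt2d over Dot1l, Kmt2b over Setd7, and Setd7 over Setd1b.

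**Figure D1:**
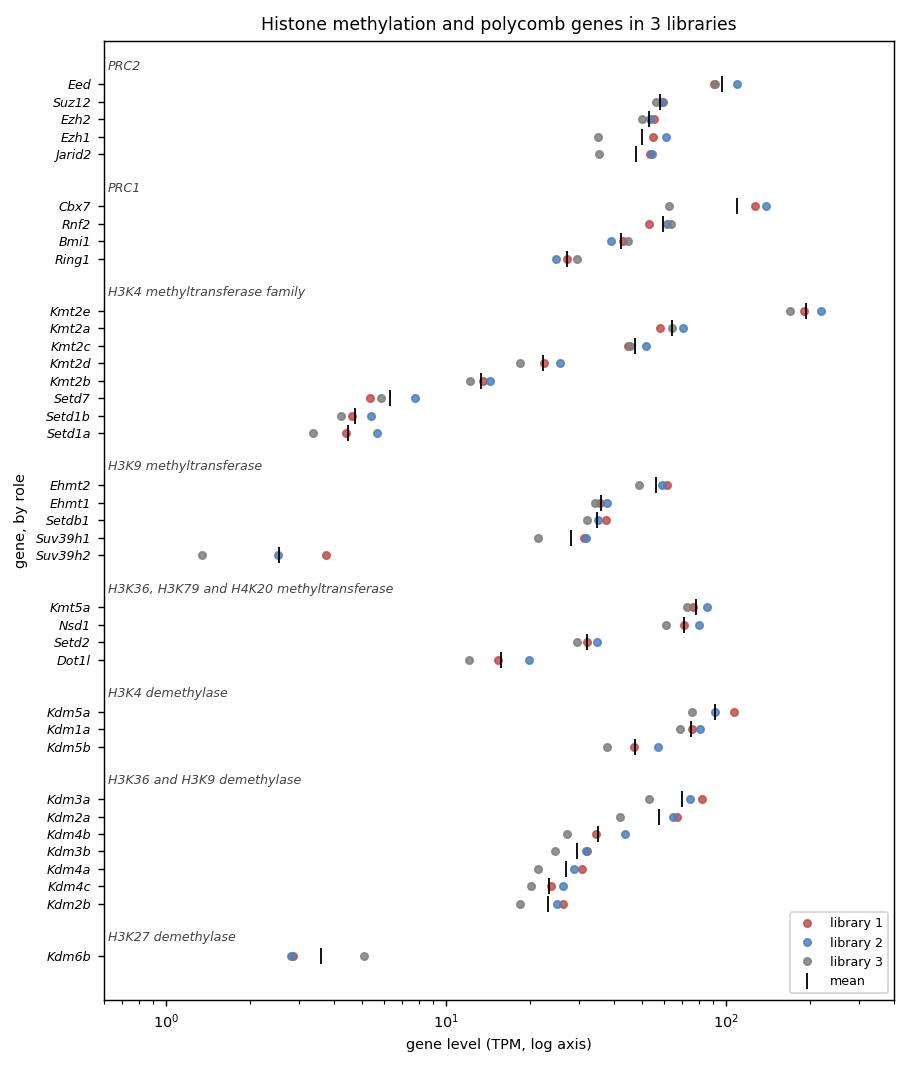
Level of each of the 37 genes in each library (points, TPM on a log axis) with the mean of the 3 libraries (bar), grouped by role. Most genes lie between 10 and 100 TPM, Kmt2e is highest at 192.8 TPM, and the library 3 point of Cbx7 lies at 62.7 TPM, well left of the other 2 libraries.

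Of the core PRC2 genes, Ezh2 and Suz12 were at similar levels and Eed was higher. Ezh2, its main methyltransferase (chromosome 6, 47530139 to 47595341, mm10), had 55.4, 53.6 and 50.3 TPM in libraries 1, 2 and 3. Suz12, the scaffold subunit, had 59.5, 59.0 and 56.3 TPM. Neither gene differed between libraries beyond counting error: the highest to lowest CPM ratio was 1.03 for Ezh2 (adjusted p = 0.625, chi-square with Benjamini-Hochberg adjustment over all genes tested) and 1.03 for Suz12 (adjusted p = 0.309). This call depended on the scaling: both passed the test at small ratios with total counts (1.09 for each; adjusted p = 0.0231 for Ezh2 and 0.000202 for Suz12), in the smaller gene table (1.11 and 1.09; adjusted p = 0.0196 and 0.0271) and with a length and GC trend removed (1.097 and 1.14; adjusted p = 0.0176 and 3.62e-09). Their libraries overlapped closely. Across the same libraries the proliferation markers Mki67 (27.3, 11.2 and 10.7 TPM) and Top2a (46.3, 22.5 and 40.3 TPM) changed 2.47-fold and 2.17-fold in CPM. Pcna, also a proliferation marker, changed less, with 169.1, 135.9 and 170.9 TPM and a CPM ratio of 1.33. Its CPM was highest in library 3 and lowest in library 2, as for Ezh2 and Suz12. A link of Ezh2 and Suz12 to proliferation was not tested. Eed, which binds the finished H3K27 trimethyl mark, had 90.6, 109.9 and 91.3 TPM and was the highest of the 5 PRC2 genes in each library.

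Ezh1, the second methyltransferase of PRC2, known for its use in non-dividing cells, lay near Ezh2 in libraries 1 and 2 and below it in library 3. It had 54.9, 60.9 and 35.0 TPM (50.3 ± 13.6, SD, n = 3), and its CPM differed 1.73-fold between libraries 2 and 3 (adjusted p = 3.02e-110). Jarid2, an accessory subunit that recruits PRC2, had 53.6, 54.6 and 35.4 TPM, again lowest in library 3, with a CPM ratio of 1.29. Eed had a ratio of 1.185. Without library 3 the ratios were 1.14 for Ezh1, 1.02 for Jarid2 (adjusted p = 0.348) and 1.185 for Eed, and with the length and GC trend removed 1.58, 1.17 and 1.27, so the order of Jarid2 and Eed turned in both settings and that of Ezh1 and Eed in the first. Ezh1 was split between coding transcripts of nearly equal length, Ezh1-202 (4207 bases) and Ezh1-203 (4193 bases). Ezh1-202 took 26.6%, 61.7% and 47.2% of its TPM, and Ezh1-203 took 53.9%, 20.9% and 27.7%. The leading transcript of library 1 was thus not that of the others.

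Of the PRC1 genes, Cbx7 varied most. Cbx7 encodes the chromodomain protein that reads trimethylated H3K27 (chromosome 15, 79915807 to 79971119), and had 127.3, 139.5 and 62.7 TPM, so that library 3 lay far below the others. The CPM values were 262.5, 282.7 and 142.4, a 1.98-fold difference, and without library 3 the ratio was 1.08. It was 1.63 in the smaller gene table, 1.65 with the length and GC trend removed, 1.87 with total counts and 2.00 with posterior mean counts. Cbx7 shares 100 exonic bases with Apobec3 on the opposite strand, which had 17188, 18211 and 14976 reads. Strandedness is not given in the sources used here, so the reads of this stretch cannot be told apart. A share of 50.03 ± 2.71% (SD, n = 3) of Cbx7 TPM fell on Cbx7-203, whose coding sequence has 474 bases, and 22.4 ± 3.97% on Cbx7-201, with the longest coding sequence at 753 bases. Cbx7-207, annotated with a retained intron, took 17.3% of TPM and 31.7% of reads on average.

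The other PRC1 genes were steadier. Rnf2, the main H2A ubiquitin ligase (Ring1B), had 53.4, 61.5 and 63.5 TPM, and its paralog Ring1 had 27.01, 24.7 and 29.5 TPM. Rnf2 was higher in every library. Bmi1, a ring-finger partner of both ligases, had 42.8, 38.8 and 44.6 TPM and did not differ beyond counting error (CPM ratio 1.02, adjusted p = 0.854), except with the length and GC trend removed (ratio 1.29, adjusted p = 9.97e-16). A processed pseudogene, Gm5946, matches the transcript of Bmi1 at 97.0% identity over 2658 bases and was given at most 7.86 reads in a library, against 2029 or more for Bmi1.

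Among the genes of the H3K4 methyltransferase family the levels ran from 4.47 TPM to 192.8 TPM. Kmt2e (MLL5), a family member with a PHD and a SET domain that is not thought to methylate histones itself, had 190.5, 218 and 169.8 TPM. Kmt2a (MLL1) had 58.0, 70.3 and 64.0 TPM, and Kmt2c (MLL3), an enhancer H3K4 monomethyltransferase, had 44.8, 52.0 and 45.5 TPM. Library 2 was the highest for these genes. Kmt2d (MLL4), the paralog of Kmt2c, had 22.5, 25.7 and 18.4 TPM, and Kmt2b (MLL2) had 13.6, 14.4 and 12.2 TPM. Both were lowest in library 3.

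The SETD1 enzymes, which deposit most H3K4 trimethylation at promoters, were low. Setd1a had 4.40, 5.66 and 3.35 TPM and Setd1b had 4.61, 5.42 and 4.22 TPM, so their libraries overlapped. At 244 to 281 reads per library, a difference between libraries was not detectable for Setd1a (CPM ratio 1.198, adjusted p = 0.126). It passed narrowly with the length and GC trend removed (adjusted p = 0.043) and without library 2 (adjusted p = 0.0329). Setd1a shares 3523 exonic bases on the same strand with the gene Gm49388, which was given 0 reads in each library. The values of Setd1a thus depend on how the authors' estimate assigned reads of this stretch. Setd7, which monomethylates H3K4 and many non-histone proteins, had 5.37, 7.78 and 5.86 TPM. Its CPM was 1.53-fold higher in library 2 than in library 1, and 1.02-fold apart when library 2 was left out. In the smaller gene table, with 91 to 116 reads, its ratio was 1.35 and did not pass the chi-square test (adjusted p = 0.116). Setd7 shares 131 exonic bases with 5031434O11Rik on the opposite strand (304.2 to 393 reads), and these reads cannot be told apart without strand.

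The H3K9 methyltransferases divided into 4 well expressed genes and 1 low one. Ehmt2 (G9a) had 61.4, 58.9 and 49.1 TPM and its partner Ehmt1 (GLP) had 35.5, 37.8 and 34.1 TPM, so Ehmt2 was the higher of the pair in every library. Setdb1, the enzyme of retroelement silencing, had 37.4, 35.0 and 31.9 TPM, and Suv39h1, an enzyme of pericentromeric heterochromatin, had 31.3, 31.6 and 21.4 TPM. Suv39h2, the paralog of Suv39h1 (chromosome 2, 3455815 to 3475031), had only 3.72, 2.51 and 1.35 TPM. All 5 genes had their lowest CPM in library 3.

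Suv39h2 was the only one of the 37 genes to reach a 2-fold difference between libraries in TMM-scaled CPM (2.05-fold, adjusted p = 3.34e-07). It was under 2-fold with total counts (1.95) and in the smaller gene table (1.80). It rests on 167.1, 125.5 and 90.1 reads. The authors' deposited TPM intervals for it were 2.98 to 4.10 in library 1, 1.97 to 2.97 in library 2 and 1.05 to 1.69 in library 3, which do not overlap. Without library 3 the ratio was 1.23 and no longer passed the test. Suv39h2 shares 357 exonic bases with Dclre1c on the opposite strand, which had 545.5 to 620.3 reads, so part of its few reads cannot be assigned with certainty.

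Of the genes for methylation of H3K36, H3K79 and H4K20, Kmt5a and Nsd1 were highest. Kmt5a (SET8), the H4K20 monomethyltransferase needed for cell division, had 76.4, 85.9 and 72.6 TPM. Nsd1, an H3K36 dimethyltransferase, had 71.2, 80.5 and 60.9 TPM, and Setd2, the enzyme of H3K36 trimethylation that travels with RNA polymerase II, had 31.9, 34.6 and 29.3 TPM. Dot1l, the H3K79 methyltransferase, was lowest at 15.3, 19.9 and 12.1 TPM. All 4 had their highest CPM in library 2 and their lowest in library 3, with a ratio from 1.15 for Kmt5a to 1.66 for Dot1l.

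The H3K4 demethylases were well expressed. Kdm5a had 106.8, 91.9 and 75.5 TPM, and its paralog Kdm5b had 47.1, 57.3 and 37.7 TPM. Kdm1a (LSD1), the amine oxidase that removes H3K4 monomethylation and dimethylation, had 75.4, 80.9 and 68.3 TPM. Each was lowest in library 3, but Kdm5a was highest in library 1 and the others in library 2.

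The 7 demethylases of H3K36 and H3K9 all had their lowest value in library 3, in TPM and in CPM. Kdm3a, an H3K9 demethylase, had 82.1, 74.4 and 53.1 TPM and was the highest of them. Kdm2a, an H3K36 demethylase that binds CpG islands, had 66.7, 64.7 and 41.8 TPM. Kdm4a, which acts on H3K9 and H3K36, had 30.7, 28.7 and 21.4 TPM. Kdm2a and Kdm4a passed 1.5-fold in CPM (1.52 and 1.57), and without library 3 both ratios were 1.04. The other genes were Kdm4b at 35.0 TPM, Kdm3b at 29.4 TPM, Kdm4c at 23.4 TPM and Kdm2b, which also joins a variant PRC1, at 23.1 TPM (means). Kdm2b shares 627 exonic bases with Rnf34 on the opposite strand (1547 to 1805 reads), and its own count is uncertain there.

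Kdm6b (JMJD3), the one H3K27 demethylase in the list, ran the other way. It had 2.84, 2.81 and 5.11 TPM, so that library 3 was highest. The reads were 304.6, 295.5 and 520.8, a 1.55-fold difference in CPM (adjusted p = 6.94e-11), which was 1.05-fold without library 3 (adjusted p = 0.653) and 2.57-fold with the length and GC trend removed (adjusted p = 4.93e-54). Another H3K27 demethylase, Kdm6a (UTX), had 44.1, 44.3 and 26.8 TPM and was lowest in that same library.

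Counted over the list, 33 of the 37 genes differed between libraries by the chi-square test, against 79.8% of all 17190 genes tested. The 4 that did not pass were Ezh2, Suz12, Bmi1 and Setd1a. With the length and GC trend removed these 4 passed and 36 of the 37 did, all but Setdb1, beside 79.42% of all genes. A difference of 1.5-fold or more in CPM between the highest and lowest library was found for 8 of the 37, namely Ezh1, Cbx7, Setd7, Suv39h2, Dot1l, Kdm2a, Kdm4a and Kdm6b, against 42.9% of all genes tested. Low counts can widen that ratio, and the 37 genes had 90.1 to 8881 reads per library. Among genes with a mean of 50 reads or more, 36.2% reached 1.5-fold, and 8 of the 37 did. The part of read depth in this gap was not tested. Among the 11109 genes with a mean of 100 reads or more, the median ratio was 1.34, and among the 37 genes it was 1.29. Leaving out library 3 left 1 gene of the 8, Setd7, and the ratio of Ezh1 fell to 1.14 and that of Dot1l to 1.23. Without library 1 there were 6 genes, Setd7 and Kdm6b both being at 1.48. Without library 2 there were 5, with Dot1l at 1.38 and Kdm2a at 1.49. The share of all genes tested also fell, to 18.8%, 30.2% and 32.6% without library 3, 1 and 2.

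The direction of the differences was uneven. By CPM, library 2 was highest for 23 of the 37 genes, library 1 for 10 and library 3 for 4, against 32.6%, 32.8% and 34.5% of all genes tested. Library 3 was lowest for 27, library 1 for 7 and library 2 for 3, against 41.4%, 30.2% and 28.4%. In TPM the count of the 37 lowest in library 3 was 29, and the share of all genes on that scale was not counted. The median log2 difference of library 3 from the mean of the other libraries was -0.29 for the 37 genes and -0.04 for all genes tested.

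Transcript length moved with this pattern. The main transcript, taken as the one with the highest TPM, had a median of 4196 bases in the 37 genes and 2340 bases in detected protein-coding genes. Over the 2951 tested genes whose main transcript had 4000 bases or more, the median log2 difference of library 3 was -0.31, and over the 14228 shorter ones it was 0.01. Within the list it was -0.35 for the 19 genes with such long main transcripts and -0.16 for the 18 others. The others include long genes whose main transcript is short. Nsd1 counted at 852 bases, although Nsd1-201 (12784 bases) held 72.4% of its reads on average. Kdm5a counted at 3665 bases, although Kdm5a-201 (10944 bases) held 53.8%. When a trend in length and GC content was removed, library 3 was still lowest for 22 of the 37, while 41.5% of all genes were lowest there. In that setting 11 of the 37 reached 1.5-fold, beside 41.18% of all genes, and Dot1l (1.25), Kdm2a (1.33) and Kdm4a (1.26) no longer did. The 6 genes that newly did were Kmt2d (1.78), Ehmt1 (1.66), Setd1b (1.58), Nsd1 (1.58), Kdm3a (1.53) and Ring1 (1.52). The trend used the main transcript lengths, with Nsd1 at 852 bases, Ehmt1 at 884 and Kmt2d at 19823. Ehmt1-204 (4902 bases) held 39.5% of the reads of Ehmt1 on average, and the 884-base Ehmt1-211 held 9.69%. Whether these 6 genes would reach 1.5-fold with another choice of length was not tested. The part of length in the differences of single genes was not tested further.

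**Figure D2:**
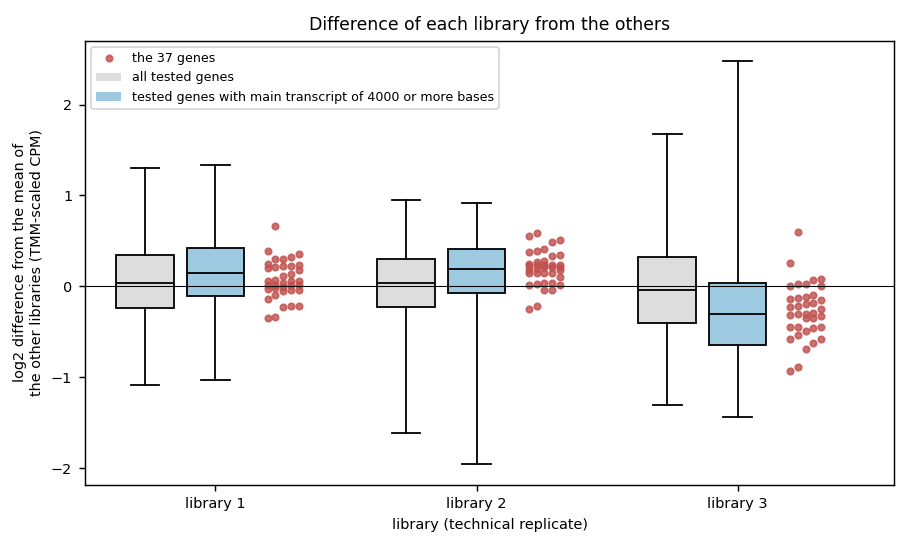
Log2 difference of each library from the mean of the other libraries in TMM-scaled CPM, for all tested genes (grey), tested genes with long main transcripts (blue) and the 37 genes (points); boxes span the quartiles with the median, and whiskers the 5th to 95th percentile. In library 3 the 37 genes have a median of -0.29, near the -0.31 of genes with long main transcripts and below the -0.04 of all genes.

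The gene totals hid large differences in which transcripts carried them. Coding transcripts took a median of 75.5% of a gene's TPM in the 37 genes and 86.3% in the 10601 detected protein-coding genes, and transcripts annotated with a retained intron took 10.7% and 3.37%. Counted by reads the gap was smaller, with medians of 90.1% and 93.6% for coding and 3.51% and 1.59% for retained-intron transcripts. The 37 genes had a median of 7 annotated transcripts and the detected protein-coding genes 5. In 5 of the 37 genes coding transcripts took under 50% of TPM in each library, beside 12.9% of detected protein-coding genes. These were Kmt2e, Suv39h2, Kdm5a, Setd1b and Setd7. By reads in place of TPM, which gives long transcripts more weight, coding transcripts held 20.4%, 38.2%, 55.0%, 56.3% and 81.1% of them, so that 2 of the 5, Kmt2e and Suv39h2, were under 50%. In the other direction, Kmt2d and Setd1a had 100.0% on coding transcripts in all libraries. For Setd1a, 47.0% of TPM on average fell on the 730-base Setd1a-203. Its coding sequence has 590 bases, beside 5148 for the longest of that gene.

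Kmt2e, the highest gene of the list, owed its level to a short transcript. Kmt2e-207, which GENCODE annotates as a target of nonsense-mediated decay (2061 bases, 13 exons), took 89.1%, 89.7% and 88.7% of the TPM of Kmt2e, and 77.3% of its reads on average. Kmt2e-202, the full-length coding transcript (7317 bases, 27 exons), took 6.54%, 6.11% and 6.34%. On full-length coding transcripts alone Kmt2e had 12.5, 13.3 and 10.8 TPM, and moved from place 1 to place 28 of 37. Full-length here means a coding sequence of at least 90% of the longest annotated one of that gene.

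A similar make-up, with smaller shares, was found for Kdm5a and Suv39h2. Kdm5a-206, annotated for nonsense-mediated decay (3665 bases), took 40.0%, 43.3% and 44.5% of the TPM of Kdm5a, and the full-length Kdm5a-201 (10944 bases) took 22.3%, 21.2% and 21.1%. Suv39h2-204, of the same class (2331 bases), took 84.1%, 69.3% and 63.7% of the TPM of Suv39h2, leaving 0.25, 0.72 and 0.49 TPM on full-length coding transcripts. So library 1, highest for Suv39h2 as a gene, was lowest for its full-length transcripts, at levels that rest on few reads. In Setd1b the retained-intron transcript Setd1b-202 took 56.8%, 60.9% and 33.9% and the coding Setd1b-204 took 26.3%, 28.0% and 39.6%. Setd7 had 40.2 ± 2.77% (SD, n = 3) on its coding transcript and the rest on retained-intron transcripts, but by reads retained-intron transcripts held 18.9%.

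The sequences below were read from the GENCODE M21 transcripts (mm10). They show where the leading transcript of Kdm5a, Suv39h2 and Setd1b, which is not annotated as protein-coding, leaves the main coding one. Each line has 30 bases, 5′ to 3′; the 15 bases in lower case are shared by both transcripts, and the 15 in capitals are the first after they part.
Kdm5a-206: aaagcaaaaacacagAATCTGCTGGATGAT
Kdm5a-201: aaagcaaaaacacagGCAGAGCTCAGATAG
Suv39h2-204: gtgccttattcaaggGGTGTGGAATATTAT
Suv39h2-201: gtgccttattcaaggCCTGGTGTGTGCCTT
Setd1b-202: gagcggatggatgagGTACCACCATGCCTG
Setd1b-204: gagcggatggatgagGGCCAGCAGTCCTCA

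In Setd1b-202 the capitals are the next bases of the chromosome (123148756 onward on chromosome 5), that is, intron sequence that Setd1b-204 splices out. In the others the exon that follows is a different one: Kdm5a-206 goes on at base 120412155 of chromosome 6 where Kdm5a-201 goes on at 120408245, and Suv39h2-204 goes on at base 3464926 of chromosome 2, on the minus strand, where Suv39h2-201 goes on at 3472647. Reads across these junctions were not counted here. Kmt2e also shares 972 exonic bases with Srpk2 on the opposite strand (1979 to 2107 reads), as Kdm5a shares 251 with Ccdc77 (213.5 to 415.6 reads), and these reads cannot be told apart without strand. The shares are the authors' model estimates over transcripts that share most of their exons.

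In other genes the gap lay between coding transcripts. Kmt2a-203 (4336 bases) took 49.0%, 46.0% and 45.5% of the TPM of Kmt2a, against 15.6%, 17.5% and 16.3% for Kmt2a-201 (16461 bases), although Kmt2a-201 held 51.2% of its reads on average. Kmt2c-206 (2646 bases) took 50.8% of the TPM of Kmt2c, and the full-length Kmt2c-201 (14967 bases) took 15.5%. For Nsd1 the full-length Nsd1-201 took 20.2% of TPM and 72.4% of reads. TPM divides by length, so a short transcript with few reads can lead a long gene. Kmt2d differed from these, with 90.7 ± 2.32% (SD, n = 3) of TPM on the 19823-base Kmt2d-201. Under full-length transcripts only, 13 of the 37 genes kept under 50% of their TPM in each library, beside 27.6% of detected protein-coding genes, and the median of the list was 21.1 TPM in place of 42.1.

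**Figure D3:**
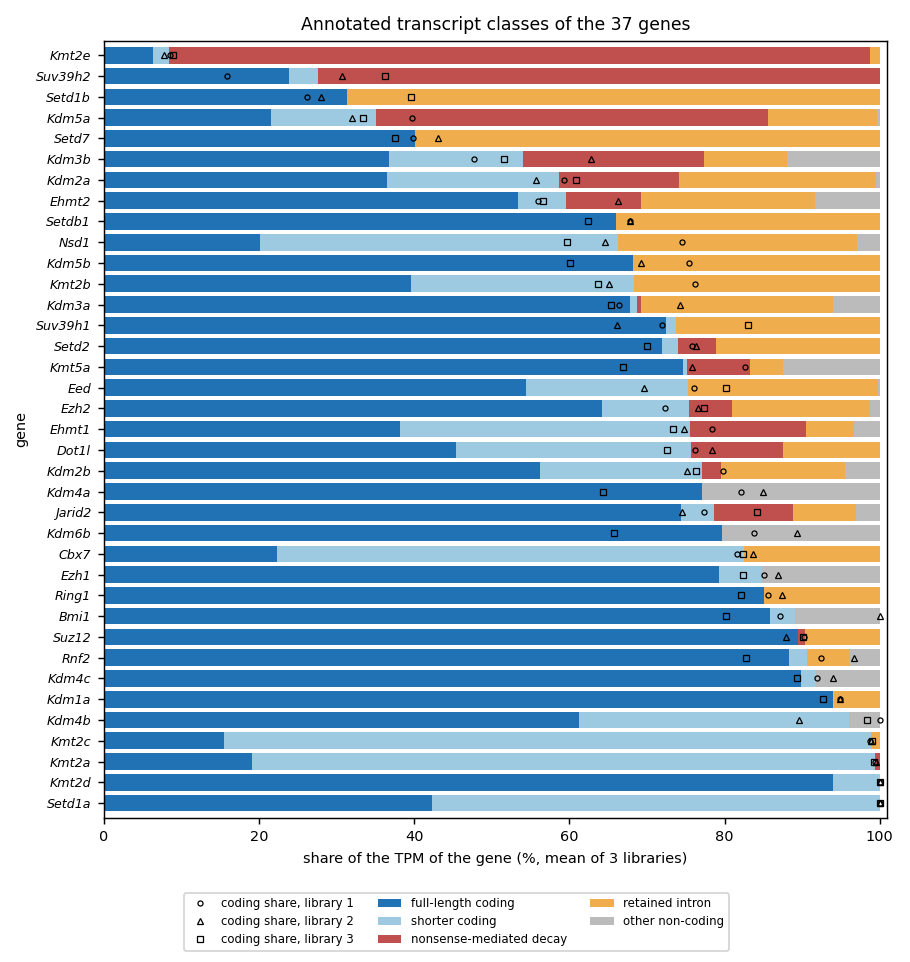
Share of each gene's TPM on annotated transcript classes (bars, mean of 3 libraries, %), with the share of all coding transcripts in each library as open symbols. Kmt2e, Suv39h2, Setd1b, Kdm5a and Setd7 lie under 50% coding, Kmt2e with 90.4% on transcripts annotated for nonsense-mediated decay.

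Paralogs and opposing enzymes were compared as log2 ratios of TPM + 1 in each library. A ratio was called beyond the spread where all libraries had the same sign and the mean exceeded 2 SD; 3 libraries allow no sign-flip p under 0.25, so no p is given. Of 16 pairs, 11 were beyond the spread. Suv39h1 over Suv39h2 was the widest paralog pair, at 2.77, 3.22 and 3.25 in the 3 libraries. Ezh2 over Kdm6b, the methyltransferase and a demethylase of H3K27, was at 3.88, 3.84 and 3.07.

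Rnf2 exceeded Ring1 by 1.11 ± 0.16 (log2 ratio, SD, n = 3), Kdm3a exceeded Kdm3b by 1.21 ± 0.12, and Kmt2a exceeded Kmt2b by 2.18 ± 0.15. Their sign held with coding and with full-length coding transcripts. Kdm2a over Kdm2b at 1.27 ± 0.11 and Ehmt1 over Ehmt2 at -0.64 ± 0.13 also kept their sign, but the latter was within the spread with coding transcripts (-0.30 ± 0.15). Ezh2 and Ezh1 could not be separated: the ratio was 0.01, -0.18 and 0.51. Setd1a and Setd1b (-0.09 ± 0.16) and Kdm4a and Kdm4b (-0.36 ± 0.22) were also within the spread over all transcripts. Over coding transcripts both pairs were beyond it, Setd1a over Setd1b with the other sign at 1.13 ± 0.37 and Kdm4a over Kdm4b at -0.67 ± 0.23, and over full-length transcripts both were within it again (0.19 ± 0.23 and -0.04 ± 0.14).

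For several pairs the order depended on which transcripts were counted, and 3 of those beyond the spread over all transcripts changed sign. Kmt2c exceeded Kmt2d by 1.07 ± 0.16 over all transcripts, but lay below it at -1.38 ± 0.04 over full-length coding transcripts. Setd2 lay below Nsd1 at -1.12 ± 0.08 and above it at 0.65 ± 0.14 over full-length transcripts. Kdm5a exceeded Kdm5b by 0.94 ± 0.25, was level with it over coding transcripts (-0.01 ± 0.36) and lay below it over full-length ones (-0.68 ± 0.28). Kdm4b over Kdm4c, at 0.54 ± 0.15, was 0.01 ± 0.20 over full-length transcripts. Pairs within the spread moved too. Kmt2a over Kdm5a went from -0.49 ± 0.33 to 0.99 ± 0.48 over coding and -0.64 ± 0.24 over full-length transcripts, the latter values both beyond the spread. Bmi1 over Cbx7 went from -1.28 ± 0.71 to 0.62 ± 0.32 over full-length transcripts, within the spread in both, and was beyond it over coding transcripts at -1.18 ± 0.57. The full-length setting was chosen after the data were seen.

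**Figure D4:**
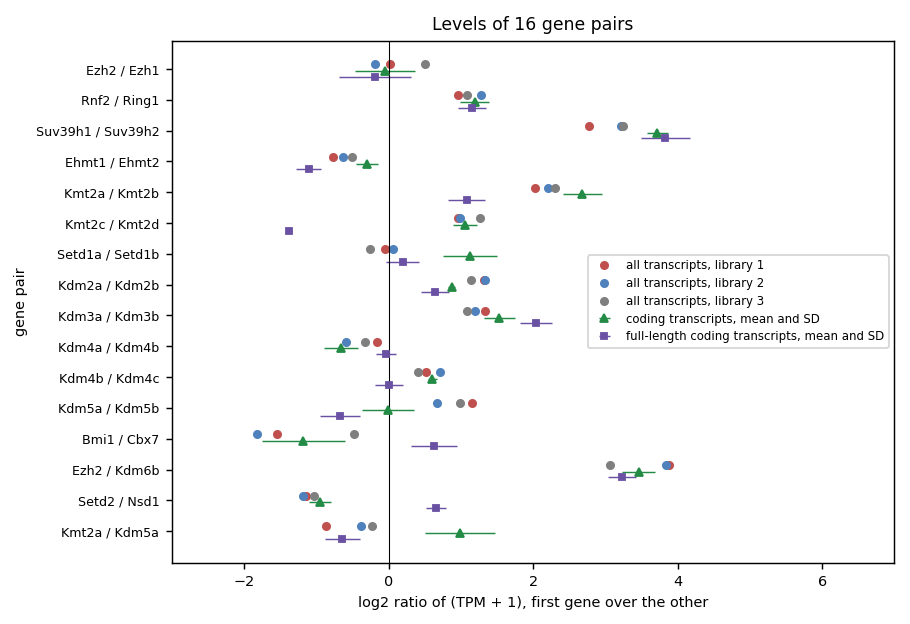
Log2 ratio of TPM + 1 for 16 gene pairs, over all transcripts in each library (circles) and over coding (triangles) and full-length coding (squares) transcripts as the mean with SD of 3 libraries. The squares of Kmt2c over Kmt2d and Setd2 over Nsd1 lie on the other side of 0 from their circles, at -1.38 and 0.65.

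E2F factors drive genes of the dividing cell, and Ezh2 is known as one of their targets. The promoters were therefore searched for the E2F letters TTTCCCGC, TTTGGCGC, TTTGCCGC and TTTCGCGC on both strands, in the RefSeq windows of build GRCm38.p6 from 250 bases before to 50 bases after a gene's start. Windows were found for 28 of the 37 genes; Kmt2b, Kmt2e, Setd1b, Nsd1, Kdm5a, Kdm2a, Kdm3b, Kdm4b and Kdm6b had none in the table. A match was found for 3 of the 28 genes, Ezh2, Suz12 and Suv39h1, and for 2.605% of the 27025 genes in the table. The lines below give those windows from 250 bases before to 20 bases after the start, in the direction of the gene, with the match in capitals.
Ezh2, chr6:47595011-47595280, minus strand: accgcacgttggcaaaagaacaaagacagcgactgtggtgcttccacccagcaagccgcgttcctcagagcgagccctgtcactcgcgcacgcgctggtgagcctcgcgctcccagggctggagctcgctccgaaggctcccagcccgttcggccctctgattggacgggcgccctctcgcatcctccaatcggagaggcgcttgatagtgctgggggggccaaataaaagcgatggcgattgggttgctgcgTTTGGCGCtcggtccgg
Suz12, chr11:79992856-79993125, plus strand: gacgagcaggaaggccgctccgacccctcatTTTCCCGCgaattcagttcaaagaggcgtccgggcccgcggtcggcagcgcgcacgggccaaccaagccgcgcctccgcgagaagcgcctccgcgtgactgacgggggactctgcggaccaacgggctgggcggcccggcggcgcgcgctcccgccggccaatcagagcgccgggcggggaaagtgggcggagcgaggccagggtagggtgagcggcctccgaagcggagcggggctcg
Suv39h1, chrX:8074342-8074611, minus strand: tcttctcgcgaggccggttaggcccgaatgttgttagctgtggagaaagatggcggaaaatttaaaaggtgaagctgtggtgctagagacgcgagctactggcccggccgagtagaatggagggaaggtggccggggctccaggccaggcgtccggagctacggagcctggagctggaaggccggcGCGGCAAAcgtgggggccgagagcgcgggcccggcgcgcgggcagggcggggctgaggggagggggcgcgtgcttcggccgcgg

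In Suv39h1 the match is on the reverse strand and reads TTTGCCGC there. A match of letters is a description and shows no binding. Of these 3 genes, Ezh2 and Suz12 had CPM ratios of 1.03 between libraries and Suv39h1 of 1.37, lowest in library 3. CpG, the dinucleotide that marks CpG islands, occurred a median of 28 times per 300-base window in the 39 windows of the 28 genes, against 7 over all windows in the table. The range was 0 to 56, and 1 window each of Kdm3a and Kdm4c held none. Each of the E2F strings searched contains a CpG, and the share of all genes with a match was not adjusted for CpG content or expression.

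Other members of the same complexes and families were measured for 70 of 72 listed genes; Ezhip and Tasor were not matched by symbol. Of the 70, 67 were detected, 68 passed the chi-square test and 19 also differed 1.5-fold or more, beside the 79.8% and 42.9% of all genes. Library 3 was lowest for 44 of them, beside 41.4% of all genes tested. The histone-binding subunits Rbbp4 (270.4, 246.6 and 289 TPM) and Rbbp7 (238.4, 254.5 and 284 TPM), which PRC2 shares with other complexes, were above every one of the 37 genes. Both were highest in library 3. Aebp2, a PRC2 accessory subunit, had 104.5, 104.6 and 68.7 TPM, with the low value in library 3 as in Jarid2.

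Among PRC1 subunits Phc2 at 106.8 TPM and Scml4 at 81.8 TPM had high means. Cbx7, at 109.8 TPM, lay above its chromodomain relatives Cbx6 at 28.7 TPM, Cbx8 at 11.5 TPM and Cbx2 at 4.89 TPM; Cbx6, Cbx8 and Cbx2 were named after their values were seen. Cbx6 was also lowest in library 3, with 33.9, 36.3 and 15.96 TPM. Pcgf2, a paralog of Bmi1, had 2.35, 2.92 and 0.95 TPM, and Bcorl1 had 0.81, 1.89 and 0.82 TPM. These last 2 genes differed 2.87-fold and 3.09-fold in CPM, on 25 to 163 reads.

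In the complexes that carry the MLL and SETD1 enzymes, Psip1 (139 TPM), Dpy30 (102.1 TPM) and Pagr1a (80.8 TPM) were highest. Men1, the menin subunit that binds Kmt2a and Kmt2b, had 42.6, 58.9 and 27.3 TPM and differed 2.05-fold in CPM, whereas Kmt2a itself differed 1.16-fold. Of the other methyltransferases, Nsd3 (99.9 TPM), Setd3 (88.4 TPM) and Kmt5b (58.8 TPM) were highest. Nsd2, the paralog of Nsd1, had 44.9, 38.0 and 20.8 TPM, a 2.02-fold difference in CPM, and Prdm9, a germ-cell methyltransferase, had 2.27, 5.64 and 5.87 TPM, a 2.39-fold difference. Jmjd6 (69.1 TPM), Riox2 (63.6 TPM) and Kdm6a (38.4 TPM) led the other demethylases, and Trim28 (131 TPM), Cbx3 (110.8 TPM) and Atf7ip (77.3 TPM) led the readers and partners of H3K9 methylation.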

How the data were processed

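The authors deposited expected counts, their estimate of reads per gene and per transcript (mm10, GENCODE M21); TPM and FPKM as deposited were scaled by the authors for length and depth, and the column layout is that of RSEM, per the file headers. The posterior mean estimates and the bounds of the TPM intervals, used as a score, are the authors' deposited columns. Raw counts per gene are in another, smaller deposited table. For kit, strandedness, aligner and versions, no statement is given in the sources used here. Spike-in and transfer RNA entries (0.166% to 0.229% of reads) were left out.

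Rounded expected counts were compared between libraries by a chi-square test with TMM effective sizes as the expectation (2 degrees of freedom; edgeR 4.0.16, R 4.3.3) in genes with a mean of 10 reads or more, with Benjamini-Hochberg adjustment at 0.05 over all of them. A quasi-likelihood contrast could not be fitted with 1 group. The test covers counting error only and was tested on simulated data. Alternatives were DESeq2 1.42.0 size factors, total counts, posterior means, the smaller table, other filters and thresholds, a length and GC trend removed, and each library left out. Sequence copies were searched with blastn 2.17.0; the other steps ran in Python 3.11.15 with pandas 2.3.3, scipy 1.17.1 and numpy 2.4.6. A planned comparison of paralog protein sequences was not run.

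All 37 genes are named, with the 3 highest of each related list and its genes at 2-fold or more; a gene and a sequence that this rule would give are not reported here. Genes and lists were chosen with earlier results of these data known.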

Additional observations from a re-analysis of the deposited data

How the results depend on the processing

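Under DESeq2 size factors, total counts, posterior mean counts, the smaller gene table and other count filters, the chi-square test was passed by 30 to 35 of the 37 genes, 36 with the length and GC trend removed, a setting added for this count after the data were seen, and 22 to 30 with 1 library left out, where fewer libraries are compared. Of all genes tested, 47.75% to 87.06% passed in the first of these settings. The share was 79.42% with the trend removed and 54.28% to 65.95% with 1 library left out. At 2-fold, Kdm6b was at 2.57 with the trend removed and Cbx7 at 2.00 with posterior mean counts. The number at 1.5-fold or more was 8, beside 42.9% of all genes tested. It was 4 in the smaller table (29.64% of all genes) and 11 with the length and GC trend removed (41.18%). With 1 library left out it was 1 to 6 (18.76% to 32.57%). It was 1 at 2-fold, where the share of all genes was not counted. The number highest in library 3 was 4, beside 34.5% of all genes tested. It was 7 with total counts (40.48% of all genes) and 2 with posterior mean counts (33.8%). It was 7 in the smaller table (34.27%), 7 with the trend removed (32.14%) and 4 to 7 with a library left out (46.4% to 47.82%). With the trend removed, 4 were highest and 13 lowest in library 1; 5 were lowest in library 2 in the smaller table. With a library left out, 13 to 30 were highest and 7 to 24 lowest in library 1. In library 2, 24 to 33 were highest and 4 to 13 lowest, and 30 to 33 were lowest in library 3. The shares of all genes in these places were 46.4% to 53.6%. Between 33 genes (5 TPM) and 37 were detected under every threshold and unit tried. Of 16 pairs, 11 to 13 were beyond the spread under each setting. Kdm5a over Kdm5b turned to -0.00689 with coding transcripts and -0.677 with full-length ones, Kmt2c over Kmt2d to -1.38 and Setd2 over Nsd1 to 0.654 with full-length ones. The 5 genes under 50% coding were 5 under each setting. The causes of these shifts were not tested. No paired analysis was possible because there is 1 group. Genes with few reads, such as Suv39h2 and Setd1a, are limited by depth.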
